A study of Homo sapiens with 6 samples.

Results

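Transforming growth factor beta (TGF-beta) and activin signalling was followed through 38 genes in IMR90, a line of human lung fibroblasts: 4 ligand genes, 6 genes for proteins that bind the ligands outside the cell, 9 receptors and coreceptors, 8 SMADs, 5 nuclear corepressors and ubiquitin ligases, and 6 target genes. They were taken by gene symbol from the 18417 genes tested, all 38 were found, and where several probe sets stood for a gene the brightest on average was used. Treated cells had received 10 ng/mL of recombinant human oncostatin M once, and control cells were left untreated. Oncostatin M belongs to the interleukin-6 cytokines and signals through JAK kinases. Each group had 3 samples with 1 gene-level Affymetrix array each, and the question was how the pathway's transcripts stood in treated against untreated cells. How long the treatment lasted is not given in the sources, and 1 dose and 1 line were studied. The labels do not state separate cultures, so the p-values rest on a spread between samples that may be technical.

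TGF-beta ligands are secreted in a latent form bound to their own propeptide and, through it, to latent TGF-beta binding proteins of the matrix or to a membrane anchor. Once free, a ligand joins type II and type I receptor kinases, and the type I kinase phosphorylates SMAD2 and SMAD3 for TGF-beta and activin, or SMAD1, SMAD5 and SMAD9 for bone morphogenetic proteins (BMPs). The phosphorylated SMADs enter the nucleus with SMAD4, while SMAD6, SMAD7, the SMURF ubiquitin ligases and the corepressors SKI and SKIL restrain the signal. In lung fibroblasts the pathway is best known for driving matrix production and the change to contractile myofibroblasts.

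Values are log2 expression levels on the arrays, and a change is oncostatin M minus control on that scale, with its standard error (SE). A gene was called when its adjusted p in limma, a linear model fitted across all genes, was under 0.05 after Benjamini-Hochberg adjustment over 18417 genes. All 13 fibroblast markers lay above 6.74, the 95th percentile of 409 olfactory receptor and keratin-associated protein genes taken as silent, and EPCAM (epithelial), PECAM1 (endothelial) and PTPRC (immune) lay at means of 4.86, 4.85 and 3.86 after oncostatin M and 4.71, 4.83 and 3.83 in control, against a mean of 4.88 for those silent genes. In each of these 3 lists 2 markers lay above 6.74: KRT18 and KRT8 (means over the 6 arrays of 9.24 and 7.75), TEK and CLDN5 (8.80 and 7.01), and CD68 and CD14 (10.66 and 7.11). Of 6 smooth muscle and pericyte markers 5 did. SOCS3, the feedback inhibitor that oncostatin M is known to induce, averaged 9.64 in oncostatin M samples and 7.58 in control samples and was higher on all 3 oncostatin M arrays. One array, oncostatin M 1, differed most from its group (limma weight 0.226, against 0.723 to 3.22 for the others), and its effect is given beside the counts below.

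Of the 38 genes, 2 were higher after oncostatin M (SMAD1 and SMAD9) and 2 were lower (INHBA and NOX4), and 34 did not pass. Over all genes 1.72% were called higher and 1.7% lower, 3.42% in all, against 10.5% of the 38. The 38 were chosen with earlier results of these data known. Their shares, here and below, are thus not independent evidence. The same 4 genes were called when oncostatin M 1 was left out. The share called was 5.1% among the 10995 genes above 6.74, here taken as the level of silent genes, where 36 of the 38 lie. Only TGFB3 and ACVR2B, with means over the 6 arrays of 5.93 and 5.94, lay below that level, so their differences are uncertain in size. The median change of the 38 genes was -0.016, against 0.000574 over all genes, with 18 above 0 and 20 below. The sign of that median turned in 4 of 15 alternative fits. Fits with another variance prior or a replicate block leave every change as it was and could not turn it.

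**Figure D1:**
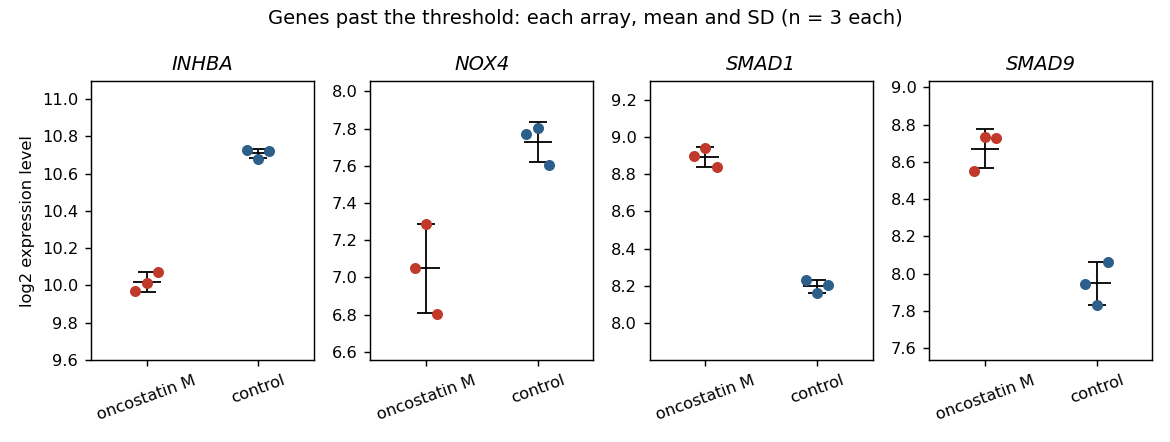
Log2 expression level (vertical axis, each panel spanning the same range) of the 4 genes past the threshold in each array, oncostatin M left and control right, with mean and SD bars (n = 3 each). INHBA and NOX4 are lower and SMAD1 and SMAD9 higher on every oncostatin M array than on any control array.

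The regions before the starts of the 4 called genes are shown because these genes carry the calls, with any match to a motif of a factor tied to the pathway or to oncostatin M in capitals. Each is the 250 bases before the first start that a RefSeq table lists for the gene (build GRCh38.p14), read 5′ to 3′ on the gene's strand, for SMAD1 at chr4:145481056-145481305 (plus), SMAD9 at chr13:36920239-36920488 (minus), INHBA at chr7:41703091-41703340 (minus) and NOX4 at chr11:89491376-89491625 (minus).
SMAD1: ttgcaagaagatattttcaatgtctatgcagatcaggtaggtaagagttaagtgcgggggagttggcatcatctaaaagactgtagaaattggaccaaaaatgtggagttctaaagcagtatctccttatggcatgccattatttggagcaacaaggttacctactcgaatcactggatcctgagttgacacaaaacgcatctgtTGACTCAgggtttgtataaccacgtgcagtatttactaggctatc
SMAD9: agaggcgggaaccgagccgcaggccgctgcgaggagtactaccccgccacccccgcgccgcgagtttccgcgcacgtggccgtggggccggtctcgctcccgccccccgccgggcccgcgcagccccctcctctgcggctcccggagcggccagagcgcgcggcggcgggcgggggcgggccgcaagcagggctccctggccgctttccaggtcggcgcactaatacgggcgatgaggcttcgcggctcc
INHBA: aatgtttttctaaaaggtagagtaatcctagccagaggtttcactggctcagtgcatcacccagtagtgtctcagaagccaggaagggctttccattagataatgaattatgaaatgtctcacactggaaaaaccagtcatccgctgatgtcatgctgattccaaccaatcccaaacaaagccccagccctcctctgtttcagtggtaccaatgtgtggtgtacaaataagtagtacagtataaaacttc
NOX4: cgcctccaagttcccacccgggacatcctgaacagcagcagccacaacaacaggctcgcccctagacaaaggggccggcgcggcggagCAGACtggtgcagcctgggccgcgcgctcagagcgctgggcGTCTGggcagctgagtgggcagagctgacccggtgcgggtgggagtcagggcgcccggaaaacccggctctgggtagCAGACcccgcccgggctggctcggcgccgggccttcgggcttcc

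The motifs, searched on both strands, were the SMAD motif CAGAC, the AP-1 motif TGANTCA, the STAT motif TTCNNNGAA, the TEAD motif GGAATG and the CArG box, which binds serum response factor. The window of NOX4 held 3 SMAD motifs, with first bases 162, 121 and 44 bases before the start, and the window of SMAD1 held 1 AP-1 match, 45 bases before it. No match overlapped another. At starts listed later, not shown, SMAD1 (4 further starts) had no AP-1 match and 1 SMAD motif, and NOX4 (2 further starts) had no SMAD motif, 1 CArG box and 1 STAT match. Of 35116 windows of this length, 38% held the SMAD motif, 6.57% the AP-1 motif, 6.57% the STAT motif, 11.9% the TEAD motif and 1.16% the CArG box. Among 77 windows of 35 of the 38 genes the shares in the same order were 39%, 7.79%, 3.9%, 11.7% and 2.6%, or 30, 6, 3, 9 and 2 windows, near those of all windows. CCN1, LRRC32 and SKI had no entry in the table. SMAD9 and INHBA had no match in the windows shown, which says only that these letters are not there. The windows also differed in composition, with 78.4% G and C for SMAD9, 72% for NOX4, 42.8% for INHBA and 41.2% for SMAD1, against a median of 58%.

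Among the ligands, INHBA fell 1.61-fold while none of the 3 TGF-beta genes passed. INHBA (probe set 8139207) encodes the beta A subunit, which pairs with itself to form activin A. Its levels were 9.97, 10.01 and 10.07 after oncostatin M and 10.73, 10.68 and 10.72 in control. The 2 groups were tight and lay far apart, with means of 10.02 ± 0.052 after oncostatin M and 10.71 ± 0.026 in control (SD, n = 3 each). The change was -0.69 (SE 0.068, limma adjusted p = 0.00131), and the call held in 6 of 6 fits that left out 1 array, with adjusted p up to 0.0178 without control 1.

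TGFB1 encodes the main TGF-beta of fibroblasts and lay between 10.12 and 10.31 after oncostatin M and between 10.28 and 10.35 in control. Its change was -0.12, with a 95% interval of -0.30 to 0.054. TGFB2 lay between 8.63 and 8.96 after oncostatin M and between 8.91 and 9.03 in control, a change of -0.19 (interval -0.41 to 0.034). Neither interval reached that of INHBA, -0.85 to -0.54. TGFB3, below 6.74 on every array, differed by 0.17 (interval -0.23 to 0.57). In a wider list of 94 pathway genes, of which 90 were measured, none of 10 other ligands passed. INHBE, another activin subunit, lay at 6.79, 6.50 and 6.34 after oncostatin M, above the control levels of 6.33, 6.17 and 5.93, and did not pass (change 0.40, adjusted p = 0.259), and INHBB differed by 0.10 (adjusted p = 0.867).

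**Figure D2:**
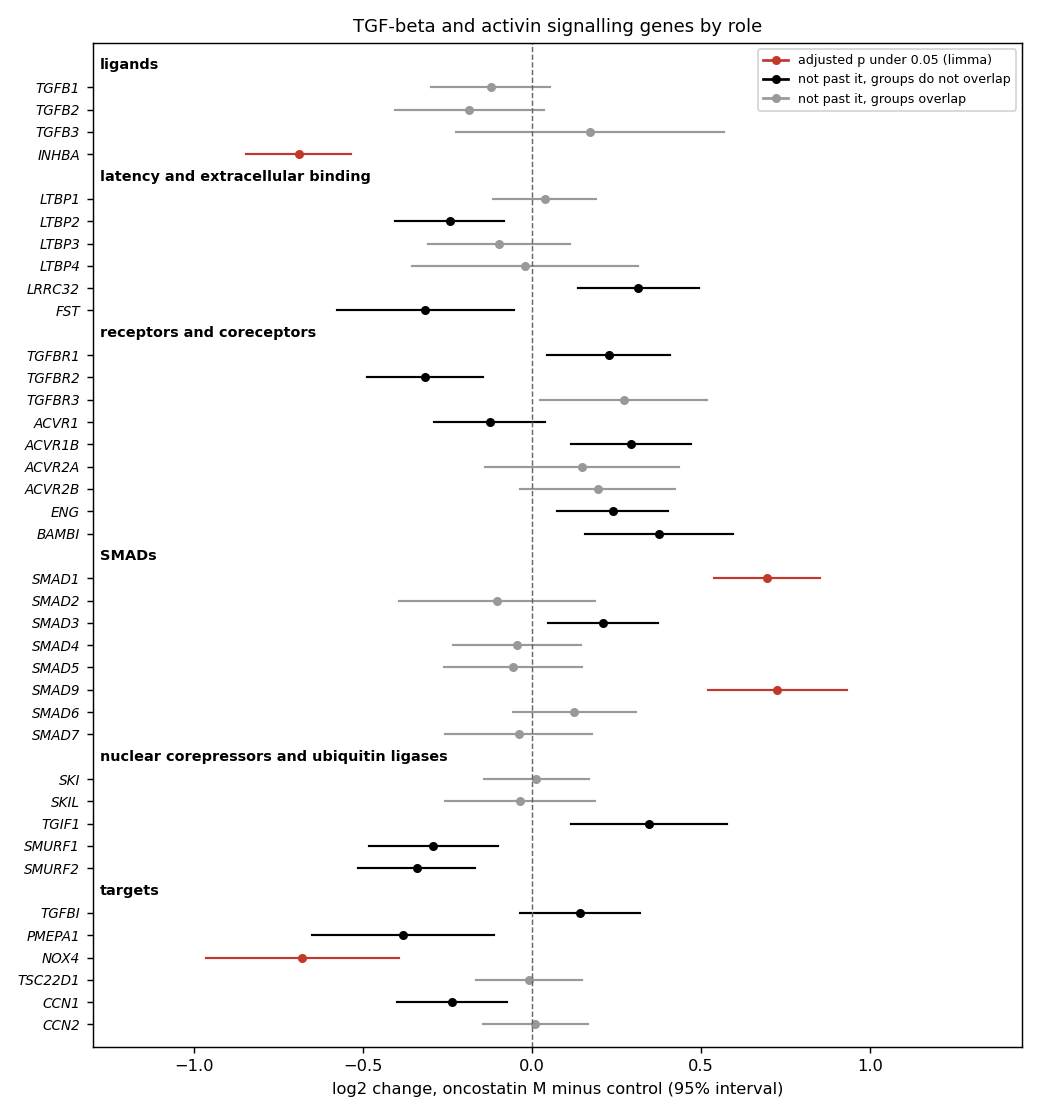
Log2 change (oncostatin M minus control, horizontal axis) with its 95% interval for the 38 genes by role, red for an adjusted p under 0.05, black for genes not past it whose groups do not overlap and grey for the others. The called genes lie at -0.69 (INHBA), -0.68 (NOX4), 0.69 (SMAD1) and 0.72 (SMAD9), and the other 34 between -0.38 and 0.37.

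Proteins that hold or trap ligands outside the cell went both ways, and none of the 6 passed. Follistatin, encoded by FST, binds activin and blocks it. FST lay at 10.50, 10.67 and 10.84 after oncostatin M and at 10.85, 10.95 and 11.16 in control. The groups did not overlap, but the highest oncostatin M array and the lowest control array nearly met, and the change of -0.32 did not pass (SE 0.11, adjusted p = 0.281). FSTL3, a related activin antagonist on the wider list, had 9.83, 9.76 and 9.68 after oncostatin M against 10.17, 10.44 and 10.06 in control, a change of -0.47 that missed the threshold (adjusted p = 0.0588). The activin subunit and its 2 antagonists were thus all at lower levels on every oncostatin M array, with INHBA alone past the threshold.

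LRRC32, also called GARP, anchors latent TGF-beta at the cell surface. It had 8.43, 8.35 and 8.26 after oncostatin M against 8.10, 7.96 and 8.04 in control (change 0.31, SE 0.078, adjusted p = 0.0826). All 3 oncostatin M arrays were above the controls, and with genes at the level of silent ones left out of the test its adjusted p was 0.0428. LTBP2, a matrix protein of the latent TGF-beta binding family that does not itself bind TGF-beta, had 10.85, 10.79 and 10.77 after oncostatin M and 10.99, 11.11 and 11.04 in control (change -0.24, adjusted p = 0.141). LTBP1, LTBP3 and LTBP4, which do carry latent TGF-beta, overlapped between groups, with changes of 0.037, -0.097 and -0.022. The interval of LTBP1, -0.11 to 0.19, was among the narrower ones, and that of LTBP4 was wide (-0.36 to 0.31).

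None of 20 further genes of ligand activation and binding on the wider list passed either. FURIN, the protease that cleaves the TGF-beta propeptide, differed by -0.27 (adjusted p = 0.0981), and the integrin subunits ITGAV and ITGB5, which take part in activating latent TGF-beta, by -0.22 and -0.24 (adjusted p = 0.301 and 0.219). Decorin (DCN), a proteoglycan that can bind TGF-beta, differed by 0.34 (adjusted p = 0.0883). FURIN, ITGAV and ITGB5 were lower and DCN higher on all oncostatin M arrays than on all controls. Of the 20 genes 4 were higher and 5 lower in this way, 45% in all against 18% of all genes and 23.5% of those above the level of silent genes. The wider list was also written with results of these data known, so this share is not independent evidence. The 4 higher genes included THBS1, FBN2 and GREM1, with changes of 0.11, 0.49 and 0.21. ITGB8, the partner of ITGAV in another activating integrin, had the widest difference of the 20, 0.59, but its groups overlapped (adjusted p = 0.156).

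No receptor or coreceptor passed among 9, although 6 had groups that did not overlap (66.7%, against 18% of all genes and 23.5% of those above the level of silent genes) and 7 had a positive change. The TGF-beta type II receptor TGFBR2, which binds the ligand first, had 10.78, 10.90 and 10.90 after oncostatin M and 11.14, 11.14 and 11.26 in control. All oncostatin M arrays were lower, and the change of -0.32 (SE 0.075) came close to the threshold (adjusted p = 0.068), which it passed under 4 of 15 alternative fits. TGFBR1, the type I kinase, lay on the other side of 0, with 10.02, 10.14 and 10.09 after oncostatin M and 9.92, 9.75 and 9.91 in control (change 0.23, adjusted p = 0.259). The intervals of the pair did not meet, at -0.49 to -0.15 for TGFBR2 and 0.045 to 0.41 for TGFBR1, and the difference between them was not tested.

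ACVR1B, the activin type I receptor, had 8.83, 8.79 and 8.84 after oncostatin M against 8.41, 8.56 and 8.62 in control (change 0.29, adjusted p = 0.108). Its 3 oncostatin M arrays lay close together, above all controls. ACVR1, a type I receptor used mainly by BMPs, had 9.21, 9.36 and 9.32 after oncostatin M and 9.42, 9.41 and 9.43 in control, a small change of -0.13 (adjusted p = 0.633). The activin type II receptors ACVR2A and ACVR2B overlapped between groups, with changes of 0.15 and 0.19.

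Endoglin, encoded by ENG, is a coreceptor that favours SMAD1 signalling in endothelial cells. It had 11.75, 11.68 and 11.76 after oncostatin M and 11.44, 11.57 and 11.47 in control (change 0.24, adjusted p = 0.164). BAMBI encodes a pseudoreceptor that lacks a kinase and blocks signalling, and had 8.51, 8.32 and 8.28 after oncostatin M and 7.86, 8.03 and 8.10 in control. Its change of 0.37 (SE 0.095, adjusted p = 0.0902) was the largest among the receptors, and oncostatin M 1 was its highest array. Betaglycan (TGFBR3), which presents ligand to TGFBR2, differed by 0.27 with groups that overlapped (adjusted p = 0.357). ACVRL1, another type I receptor on the wider list, was above control on all oncostatin M arrays (change 0.26, adjusted p = 0.34).

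Both genes that rose were SMADs. SMAD1 and SMAD9, both carriers of the BMP signal, rose 1.62-fold and 1.65-fold, while SMAD5, the third of that class, did not pass. SMAD1 (probe set 8097657) had 8.90, 8.94 and 8.84 after oncostatin M and 8.23, 8.16 and 8.20 in control. The spread within groups was small beside the gap, with means of 8.89 ± 0.052 and 8.20 ± 0.035 in oncostatin M and control samples (SD, n = 3 each). The change was 0.69 (SE 0.068, adjusted p = 0.00134, limma), and adjusted p stayed at or under 0.0152 in the 6 fits that left out 1 array.

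SMAD9 (probe set 7971015) had 8.55, 8.74 and 8.73 after oncostatin M and 7.94, 7.83 and 8.07 in control. Oncostatin M 1 was its lowest treated array and still lay above every control. Its change was 0.72 (SE 0.089, adjusted p = 0.0038, limma), with adjusted p up to 0.0367 without control 1. SMAD5 lay between 9.60 and 9.84 after oncostatin M and between 9.72 and 9.87 in control, and its interval of -0.26 to 0.15 did not reach those of SMAD1 (0.54 to 0.85) and SMAD9 (0.52 to 0.93).

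SMAD2 and SMAD3 carry the signal of TGF-beta and activin, and neither passed. SMAD3 had 11.14, 11.10 and 11.21 after oncostatin M and 10.88, 10.96 and 10.98 in control, higher on every oncostatin M array by a small amount (change 0.21, SE 0.071, adjusted p = 0.237). SMAD2 overlapped between groups (change -0.11, interval -0.39 to 0.18), with a second probe set at -0.087. SMAD4, the partner shared by all of them, differed by -0.045 (interval -0.23 to 0.14). The inhibitory SMADs, which are also early targets of the pathway, overlapped as well, with changes of 0.12 for SMAD6 and -0.040 for SMAD7 (intervals -0.058 to 0.31 and -0.26 to 0.18). Without oncostatin M 1 the changes of SMAD2, SMAD4 and SMAD5 turned to small positive values of 0.030, 0.028 and 0.020.

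**Figure D3:**
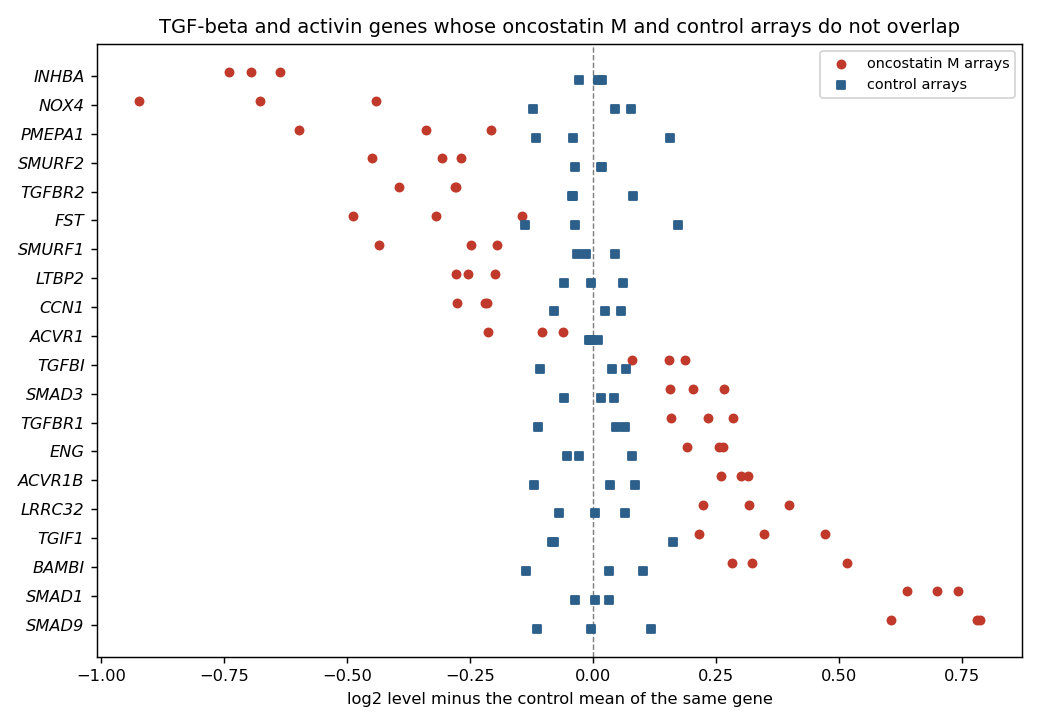
Log2 level of each array minus the control mean of the same gene (horizontal axis) for the 20 genes whose groups do not overlap, with oncostatin M arrays as red circles and control arrays as blue squares. INHBA, SMAD1 and SMAD9 show wide gaps between groups, while FST and TGFBI show narrow ones.

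Both SMURF genes were at lower levels on all oncostatin M arrays, short of the threshold. SMURF2, a ubiquitin ligase that marks SMADs and receptors for breakdown, had 12.03, 12.17 and 12.21 after oncostatin M and 12.50, 12.44 and 12.50 in control. Its change of -0.34 (SE 0.075) had an adjusted p of 0.0526 in limma, the nearest miss among the 38, and it passed under 4 of 15 alternative fits. SMURF1, its relative known for targeting SMAD1 and SMAD5, had 9.27, 9.46 and 9.51 after oncostatin M and 9.68, 9.69 and 9.75 in control (change -0.29, adjusted p = 0.135). On both genes oncostatin M 1 was the lowest array.

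TGIF1, a corepressor that binds SMAD2 and SMAD3, had 10.47, 10.59 and 10.34 after oncostatin M and 10.04, 10.28 and 10.04 in control (change 0.35, adjusted p = 0.143). Its 4 other probe sets gave changes between 0.22 and 0.36, none past the threshold. SKI and SKIL overlapped between groups, with changes of 0.012 and -0.037 and intervals of -0.14 to 0.17 and -0.26 to 0.19. On the wider list, 1 of 30 further intracellular regulators passed, or 3.33%, near the 3.42% of all genes. This was DAB2, an endocytic adaptor that also binds SMADs, which rose by 0.42 (adjusted p = 0.0329, limma). Its call was lost in 5 of 6 fits that left out 1 array. The other 29 included CREBBP, EP300 and TRIM33, with changes of -0.0089, 0.028 and -0.048. Not all were so flat. RUNX2 and ZEB2 were higher on every oncostatin M array (changes 0.27 and 0.17), and RUNX1 and SNAI2 lower (-0.34 and -0.23). With DAB2, 3 of the 30 were higher and 2 lower in this way, 16.7% in all, near the 18% of all genes.

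Of the 6 targets, NOX4 fell 1.60-fold and the others did not pass. NOX4 (probe set 7950933) is an oxidase induced by TGF-beta in lung fibroblasts that produces hydrogen peroxide. It had 7.05, 7.29 and 6.81 after oncostatin M and 7.77, 7.80 and 7.61 in control, with the oncostatin M arrays spread more widely. The level of 6.81 lay near 6.74, the 95th percentile of the silent genes, so the size of the fall is uncertain. The change was -0.68 (SE 0.12, adjusted p = 0.0233, limma), and it no longer passed when any 1 control array was left out, with adjusted p = 0.139, 0.116 and 0.0503 for controls 1 to 3.

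PMEPA1, a membrane protein induced by TGF-beta that dampens its signal, had 7.88, 7.75 and 7.49 after oncostatin M and 7.97, 8.24 and 8.05 in control. It was lower on all oncostatin M arrays, with the groups close at their edges (change -0.38, SE 0.12, adjusted p = 0.175). CCN1, a matricellular protein also driven by YAP, had 11.49, 11.55 and 11.55 after oncostatin M and 11.79, 11.82 and 11.69 in control (change -0.24, adjusted p = 0.164). Its relative CCN2, the connective tissue growth factor, lay at 12.33, 12.34 and 12.34 after oncostatin M and 12.37, 12.34 and 12.27 in control. The interval of CCN2, -0.14 to 0.16, thus left room only for small changes, with a measured one of 0.010.

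TGFBI, a secreted adhesion protein named for its induction by TGF-beta, had 13.09, 13.13 and 13.02 after oncostatin M and 13.01, 12.98 and 12.83 in control. The groups just failed to overlap (change 0.14, adjusted p = 0.612), and the direction was opposite to those of NOX4 and PMEPA1. TSC22D1, a transcriptional regulator, differed by -0.010 (interval -0.17 to 0.15).

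Taking the 38 genes by the placement of arrays, 20 had groups that did not overlap, 10 higher and 10 lower after oncostatin M. That is 52.6% of them against 18% of all genes, of which 7.43% were higher and 10.6% lower. As the 38 were chosen with earlier results known, this excess is not independent evidence. Above the level of silent genes the shares were 20 of 36, or 55.6%, against 23.5%. Without oncostatin M 1 they were 24 of 38, or 63.2%, against 31.6%. An unadjusted p under 0.05 was reached by 19 of the 38 and by 11.6% of all genes. Most of these differences were small: the median size of change was 0.20 among the 38 and 0.074 among all genes, and the 95% interval of the 38 reached a median of 0.185 to either side. In simulated data on all 18417 genes 47.3% of changes of 0.5 were recovered, and smaller ones were not simulated. That simulation held no deviations of whole arrays, so its rate may not carry over to these data.

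Of the 90 measured genes of the wider list, 2 were higher (2.22%) and 8 lower (8.89%), against 1.72% and 1.7% of all genes. Of its 26 further genes known to respond to TGF-beta, 8 were lower, 1 was higher and 17 did not pass. So 34.6% were called, against 3.42% of all genes and 5.1% of those above the level of silent genes, where all but 1 of the 26 lie. A change below 0 was found for 20 of them (76.9%), against 49.8% of all genes, and their median change was -0.20. This list was written with results of these data known, so its direction is not independent evidence. SPHK1, which makes sphingosine 1-phosphate, was lower on all oncostatin M arrays, at 8.01, 7.70 and 7.81 against 8.67, 8.94 and 8.55 in control. It fell 1.84-fold (change -0.88, SE 0.12, adjusted p = 0.00614). TIMP3, an inhibitor of matrix proteases, had 11.12, 11.07 and 11.17 after oncostatin M and 11.82, 11.84 and 11.75 in control, and fell 1.60-fold (adjusted p = 0.00154).

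ADAM19, a metalloprotease, fell by 0.66, the cytokine gene IL11 by 0.61 and the Wnt ligand WNT5B by 0.61. The calponin CNN1, the adhesion protein TNS1 and the tropomyosin TPM1, all tied to actin, fell by 0.50, 0.47 and 0.36. Adjusted p for these 6 ran from 0.00715 for WNT5B to 0.0425 for TPM1 (limma). TPM1 lost its call in 6 of 6 fits that left out 1 array, IL11 and CNN1 in 4 each, TNS1 in 3 and ADAM19 in 2, whereas SPHK1, TIMP3, WNT5B and JUNB kept theirs in all 6. JUNB was the gene that rose, 2.11-fold (change 1.08, SE 0.094, adjusted p = 0.000792), and it is also a known target of STAT3, through which oncostatin M signals.

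Among the 17 that did not pass, ACTA2, the smooth muscle actin of myofibroblasts, had 12.66, 12.67 and 12.33 after oncostatin M and 12.93, 12.94 and 12.75 in control (change -0.32, adjusted p = 0.257), and TAGLN and LOX differed by -0.20 and -0.21 (adjusted p = 0.249 and 0.235). All 3 were lower on every oncostatin M array. LMCD1 went the other way, higher on every oncostatin M array, and lay nearer the threshold (change 0.35, adjusted p = 0.0784, limma). Of the 26 genes 15 were lower and 2 higher in this way, 65.4% in all against 18% of all genes. The fibrillar collagens COL1A1 and COL3A1 and the matrix protein POSTN overlapped between groups, with changes of -0.036, 0.31 and 0.33. ID1, best known as a target of SMAD1 and SMAD5, had 8.44, 8.38 and 8.56 after oncostatin M and 8.66, 8.79 and 8.87 in control (change -0.31, adjusted p = 0.119), lower on all 3 oncostatin M arrays whereas SMAD1 and SMAD9 were higher.

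**Figure D4:**
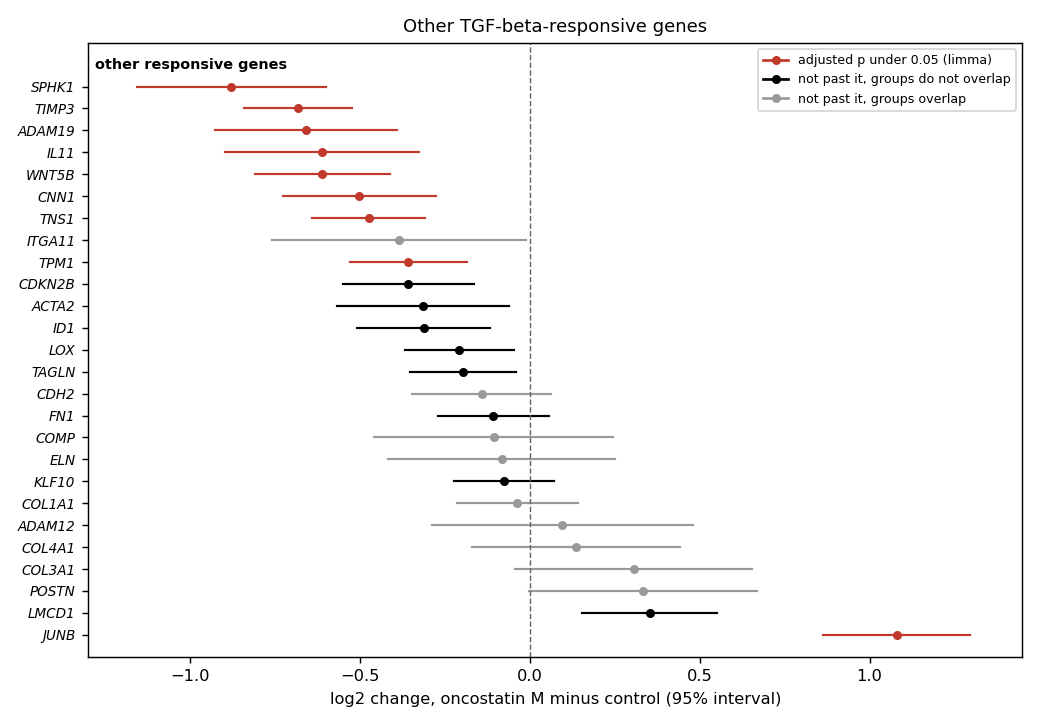
Log2 change (oncostatin M minus control, horizontal axis) with its 95% interval for 26 further TGF-beta-responsive genes, red for an adjusted p under 0.05, black for genes not past it whose groups do not overlap and grey for the others. Of these, 8 are called below 0, JUNB is called above 0, and the collagens lie near or above 0.

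Some marker lists of other cell types shifted alongside these genes. The log2 of the summed level of 6 smooth muscle and pericyte markers lay between 12.90 and 13.05 after oncostatin M and between 13.14 and 13.27 in control. That sum mostly follows its brightest gene, ACTG2, with means of 12.79 after oncostatin M and 13.01 in control (adjusted p = 0.275, limma). RGS5 and CSPG4, far dimmer, were the 2 called lower. On all oncostatin M arrays 4 of the 6 were lower (66.7%, against 10.6% of all genes), while MYH11 and DES overlapped between groups. Sums over 9 epithelial markers lay between 10.26 and 10.51 after oncostatin M and between 10.03 and 10.19 in control, with KRT18 called higher (9.50 after oncostatin M and 8.98 in control). The other 8 epithelial markers overlapped between groups, and the median change of the 9 was 0.0035. For 6 immune markers the sums were 10.91 to 10.95 after oncostatin M and 10.72 to 10.92 in control, with CD14 called higher, and for 6 endothelial markers 9.47 to 9.90 and 9.27 to 9.49 in oncostatin M and control samples. The 13 fibroblast markers gave sums of 15.86 to 15.97 after oncostatin M and 15.86 to 15.94 in control, while LUM, TWIST1 and PDGFRA were called higher (changes 0.75, 0.49 and 0.39) and PDGFRB lower (-0.37). Single fibroblast markers thus shifted as well: 6 were higher and 3 lower on all oncostatin M arrays, 69.2% in all against 18% of all genes. The part of these shifts in the changes above was not tested, and in bulk RNA fewer cells of a type and less RNA per cell cannot be told apart.

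**Figure D5:**
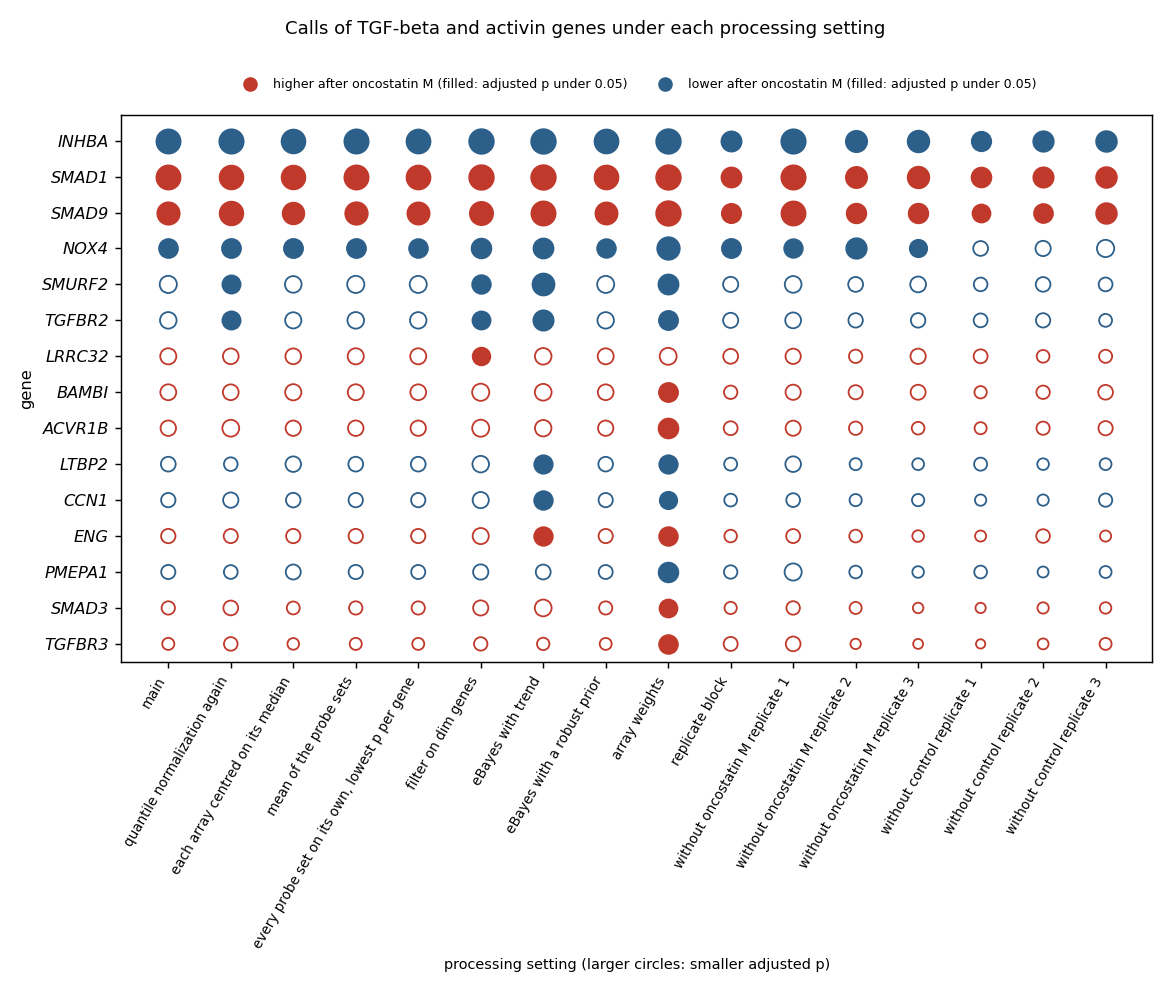
Calls of the 15 genes of the 38 that passed in at least 1 processing setting (horizontal axis, settings; vertical axis, genes), red for higher and blue for lower after oncostatin M, filled for an adjusted p under 0.05 and larger for a smaller adjusted p. INHBA, SMAD1 and SMAD9 are filled under every setting shown, NOX4 is open without any 1 control array, and 11 genes are filled only under alternatives.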

How the data were processed

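RNA of 6 samples was measured on gene-level Affymetrix arrays, after RNeasy purification and labelling with an Ambion kit, per the labels' protocols. The deposited log2 values came from the authors' run of RMA, for which the submitters' processing notes name Affymetrix Expression Console 1.1. The program settings and genome build are not given there or in the labels. RMA makes array distributions alike and shrinks differences of dim genes, and every change is relative to the rest of the array. Array medians lay between 6.54 and 6.66, no 2 columns were identical, and the number of arrays limits the precision.

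Of 33297 probe sets, a platform table gave exactly 1 gene symbol to 19460, several to 1754 and none to 12083. The probe set with the highest mean was kept for each of 18417 genes, with no filter on dim genes, and 769 genes had a choice. Groups were compared in limma 3.58.1 (R 4.3.3) by a two-sided moderated test without covariates, adjusted by Benjamini-Hochberg over all genes, at a threshold of 0.05. An exact permutation test of 3 against 3 arrays cannot go below 0.1 and was not used. The test was tried on simulated data drawn from the real means and spreads, with 200 of 18417 genes changed. It recovered 47.3% of log2 changes of 0.5, 92.2% of those of 1 and 99.7% of those of 2, and 4.1% of calls were false. Each gene was drawn on its own, so the simulation held no deviation of a whole array such as that of oncostatin M 1. It also changed fewer genes than the 630 called in the data. These rates may therefore not carry over to the real arrays.

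The 38 genes and all lists were chosen with earlier results of these data known. Levels in every array are given for genes of the 38 that passed or whose groups do not overlap, and from the wider list genes past the threshold are named. Genes of that list that are named without having passed, ID1 among them, were picked with their values in view. Of its 94 genes 4 are not analysed here. Promoter sequences are RefSeq's (GRCh38.p14). Alternatives changed the normalization, the probe set, the variance prior and the threshold, dropped dim genes or 1 array at a time, weighted the arrays, or added a replicate block. Figures were drawn with matplotlib 3.10.9.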

Additional observations from a re-analysis of the deposited data

How the results depend on the processing

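INHBA, SMAD1 and SMAD9 kept their calls and directions in all 15 alternative fits, and NOX4 in 12. Not all of these fits could move a direction. Another variance prior, the filter on dim genes and the replicate block leave each change as it was, so only the call could move. The called genes had a single probe set each, so other choices of probe set left their changes the same too. With a threshold of 0.01, 175 genes were higher and 112 lower over all genes, with 1 of the 38 lower and 1 and 3 of the wider list higher and lower. At 0.1, 423 genes were higher and 461 lower, with 4 and 4 of the 38 and 5 and 11 of the wider list. Array weights gave the most calls: 667 genes higher and 610 lower, 7 and 7 of the 38, and 5 and 15 of the wider list. Of the 38, 4 were lower with quantile normalization again (352 of all genes), 4 with the filter on dim genes (401 of all genes, and 5 of the wider list higher) and 6 with a trended prior (465 of all genes), against 2 of the 38 and 314 of all genes without these changes. Centring on medians left 1 of the wider list higher. Leaving out 1 array gave 156 to 400 genes higher and 105 to 332 lower, both lowest without control 1 and highest without oncostatin M 1. Of the 38, these fits called 2 to 2 higher and 1 to 2 lower, and of the wider list 1 to 3 higher and 3 to 10 lower. The cause of these shifts was not tested, beyond fewer arrays in the last.

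Directions turned only for genes that were not called. With array weights the changes became -0.012 for TGFB3, 0.0049 for SMAD4, 0.024 for TSC22D1 and -0.0014 for CCN2, and with quantile normalization again 0.011 for LTBP4 and 0.020 for TSC22D1. With 1 array left out, changes ranged from -0.019 to 0.28 for TGFB3, -0.16 to 0.096 for LTBP4, -0.19 to 0.030 for SMAD2, -0.087 to 0.028 for SMAD4, -0.10 to 0.020 for SMAD5, -0.089 to 0.040 for SMAD7, -0.0047 to 0.040 for SKI, -0.13 to 0.025 for SKIL, -0.027 to 0.018 for TSC22D1 and -0.019 to 0.032 for CCN2.

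Whether the replicate numbers pair the samples is not settled by these data. Deviations of same-numbered arrays correlated at 0.0635, -0.456 and 0.511. Those of differently numbered arrays ranged as widely, from -0.605 to 0.543. With the replicate number as a block, 255 genes were higher and 223 lower, and 2 of the 38 were higher and 2 lower. Of the wider list 2 were higher and 6 lower, with DAB2 (adjusted p = 0.0905), IL11 (0.0963) and TPM1 (0.123) no longer past the threshold in limma. Low signal limits TGFB3 and ACVR2B, whose means lay below 6.74, the 95th percentile of the silent genes.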
